A study of Mus musculus with 3 samples.

Results

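Glutamate uptake and glutamine synthesis in the retina were followed through 4 genes, Glul, Slc1a2, Slc1a3 and Slc1a7, chosen by name and all found among the 18545 genes of the matrix. The study compared retinas of C57BL/6J mice aged 8 weeks in 3 groups, each of them 1 pooled droplet library of papain-dissociated tissue. WT and rd10-vehicle mice ate the same base chow, and rd10-TMB mice ate chow with tamsulosin, metoprolol and bromocriptine (TMB). The rd10 allele is a point mutation of Pde6b, a phosphodiesterase gene of rods, and homozygous mice lose rods first and cones later. The labels give the genotype as Rd10 without naming zygosity. Mice of all groups were kept in the dark for life, which slows that loss. Per library, 1 retina from each of 4 mice was pooled according to the labels. The text of the paper names fewer mice for the rd10 pools. The WT pool held 2 females and 2 males, and both rd10 pools were female.

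Photoreceptors and bipolar cells release glutamate as their transmitter, and it has to be cleared from the extracellular space. Müller glia (MG), which span the retina, take it up and turn it into glutamine, and neurons take that glutamine up and remake glutamate from it. Glul encodes glutamine synthetase, the enzyme of the glial step, and Slc1a3 encodes GLAST (EAAT1), the main glutamate transporter of MG. Slc1a2 encodes GLT-1 (EAAT2), known in the retina from cones and bipolar cells, and Slc1a7 encodes EAAT5, a transporter of photoreceptor and bipolar cell terminals that also conducts chloride.

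The libraries held 4478 WT, 5952 rd10-vehicle and 4812 rd10-TMB cells, with medians of 3509.5 to 4812 unique molecular identifiers (UMIs) per cell, and 50 cells carried a barcode found in more than 1 library. Cell classes are clusters of the authors, named here from marker genes, hence MG-like, rod-like, rod bipolar cell-like (RBC-like) or cone bipolar cell-like (CBC-like). MG-like cells were 1 cluster with 13 of 13 MG markers and 530, 2492 and 1748 cells. Levels are CPM, that is UMIs of a gene per 1000000 UMIs of a class in a library, with 95% intervals for counting error alone, and are given in the order WT, rd10-vehicle and rd10-TMB. With 1 library per group there was no replicate and no test, so a difference beyond counting error is one between these libraries. The reads come from transcript ends, so levels are compared within a gene and not between genes.

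Glul lies on chromosome 1 at 153899944 to 153909723 (plus strand), Slc1a2 on chromosome 2 at 102658659 to 102790784 (plus strand), Slc1a3 on chromosome 15 at 8634124 to 8710764 (minus strand) and Slc1a7 on chromosome 4 at 107968332 to 108013532 (plus strand), in mm10 coordinates. Teddm2 overlaps an exon of Glul and Gm13872 an exon of Slc1a2, each on the opposite strand. The promoters of Glul and Slc1a3 are shown because these were the pair whose levels ran most alike over the cell classes. Each line holds the 250 bases before the RefSeq start (GRCm38.p6), 5′ to 3′ on the strand of the gene, and capitals mark matches to CCAAT or GGGCGG on either strand. The Glul window is chr1:153899679-153899928 (plus strand) and that of Slc1a3 is chr15:8710808-8711057 (minus strand).
Glul: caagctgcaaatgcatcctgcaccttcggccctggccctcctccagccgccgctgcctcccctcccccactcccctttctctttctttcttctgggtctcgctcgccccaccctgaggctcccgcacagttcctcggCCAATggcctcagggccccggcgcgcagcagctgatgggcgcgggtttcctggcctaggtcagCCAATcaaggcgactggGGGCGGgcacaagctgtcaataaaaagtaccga
Slc1a3: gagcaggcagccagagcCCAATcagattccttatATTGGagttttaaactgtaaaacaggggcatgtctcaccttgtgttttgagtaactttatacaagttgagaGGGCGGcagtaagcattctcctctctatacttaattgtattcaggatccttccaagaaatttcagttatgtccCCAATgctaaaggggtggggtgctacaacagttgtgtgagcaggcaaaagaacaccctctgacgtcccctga
The Glul window had a GC content of 64.8% with 15 CpG dinucleotides and that of Slc1a3 44.8% with 2, beside medians of 52.4% and 6 over 32851 promoters. CCAAT was found 2 times in the Glul window and 3 times in the Slc1a3 window, and 33.8% of all promoters held it. GGGCGG was found 1 time in each, and 32.7% of all promoters held it. TAATCC, the core that CRX and OTX2 bind (6.25% of promoters), the SOX core ACAAAG (16.5%), the LIM homeodomain core TAATTA (4.84%) and the E-box CACGTG (6.02%) were in neither window on either strand.

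Glul was far higher in MG-like cells than in photoreceptors and bipolar cells. MG-like cells had 9019.8 (8918 to 9123) CPM in WT, 6581 (6547 to 6614) in rd10-vehicle and 7512 (7471 to 7554) in rd10-TMB. Photoreceptors, that is rod-like and cone-like cells together, had 57.4, 114 and 128 CPM, and bipolar cells, RBC-like and CBC-like together, had 65.8, 130.4 and 118 CPM. MG-like cells and these neurons did not overlap, since the highest level among the rod-like, cone-like and bipolar classes was 154 CPM, in rod-like cells of rd10-TMB. The median log2 ratio of MG-like cells over photoreceptors was 5.87 (5.84 to 7.29 over the 3 libraries), and over bipolar cells it was 6.0 (5.66 to 7.09 over the 3 libraries). MG-like cells held 90.3%, 96% and 97% of the Glul UMIs of their libraries. Some small classes had Glul levels between those of MG-like cells and these neurons, and the part of free MG RNA in them was not tested. Retinal pigment epithelium (RPE)-like cells (13, 35 and 16 cells) had 643, 1339 and 449.6 CPM, and the unnamed cluster 18 (3, 23 and 6 cells) had 1543, 1854 and 3056 CPM. Lens-like cells, absent from WT, had 647 CPM with vehicle and 2063 CPM with TMB.

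Slc1a3 differed still more than Glul between MG-like cells and photoreceptors or bipolar cells. MG-like cells had 1411 (1370.5 to 1452), 1005 (992 to 1019) and 1065 (1049 to 1081) CPM, whereas photoreceptors had 3.10, 7.59 and 6.40 CPM from 10, 26 and 22 UMIs. Bipolar cells had 2.41, 4.56 and 4.19 CPM from 10, 23 and 21 UMIs. The median log2 ratio of MG-like cells was 7.31 (7.0 to 8.69 over the 3 libraries) for photoreceptors and 7.92 (7.72 to 9.06 over the 3 libraries) for bipolar cells. Over cone-like cells alone, in place of all photoreceptors, it was 8.01 (6.87 to 8.97 over the 3 libraries). Over amacrine-like cells, in contrast, the Slc1a3 ratio of 4.68 (4.17 to 6.0 over the 3 libraries) was below that of Glul, 5.84 (5.63 to 6.54 over the 3 libraries), in each library. Ranked by the median over photoreceptors or bipolar cells, Slc1a3 was number 10 of 10062 genes against photoreceptors and number 8 of 10538 against bipolar cells, where Glul was number 231 and number 271. MG-like cells held 91.7%, 93.2% and 96.3% of the Slc1a3 UMIs.

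**Figure D1:**
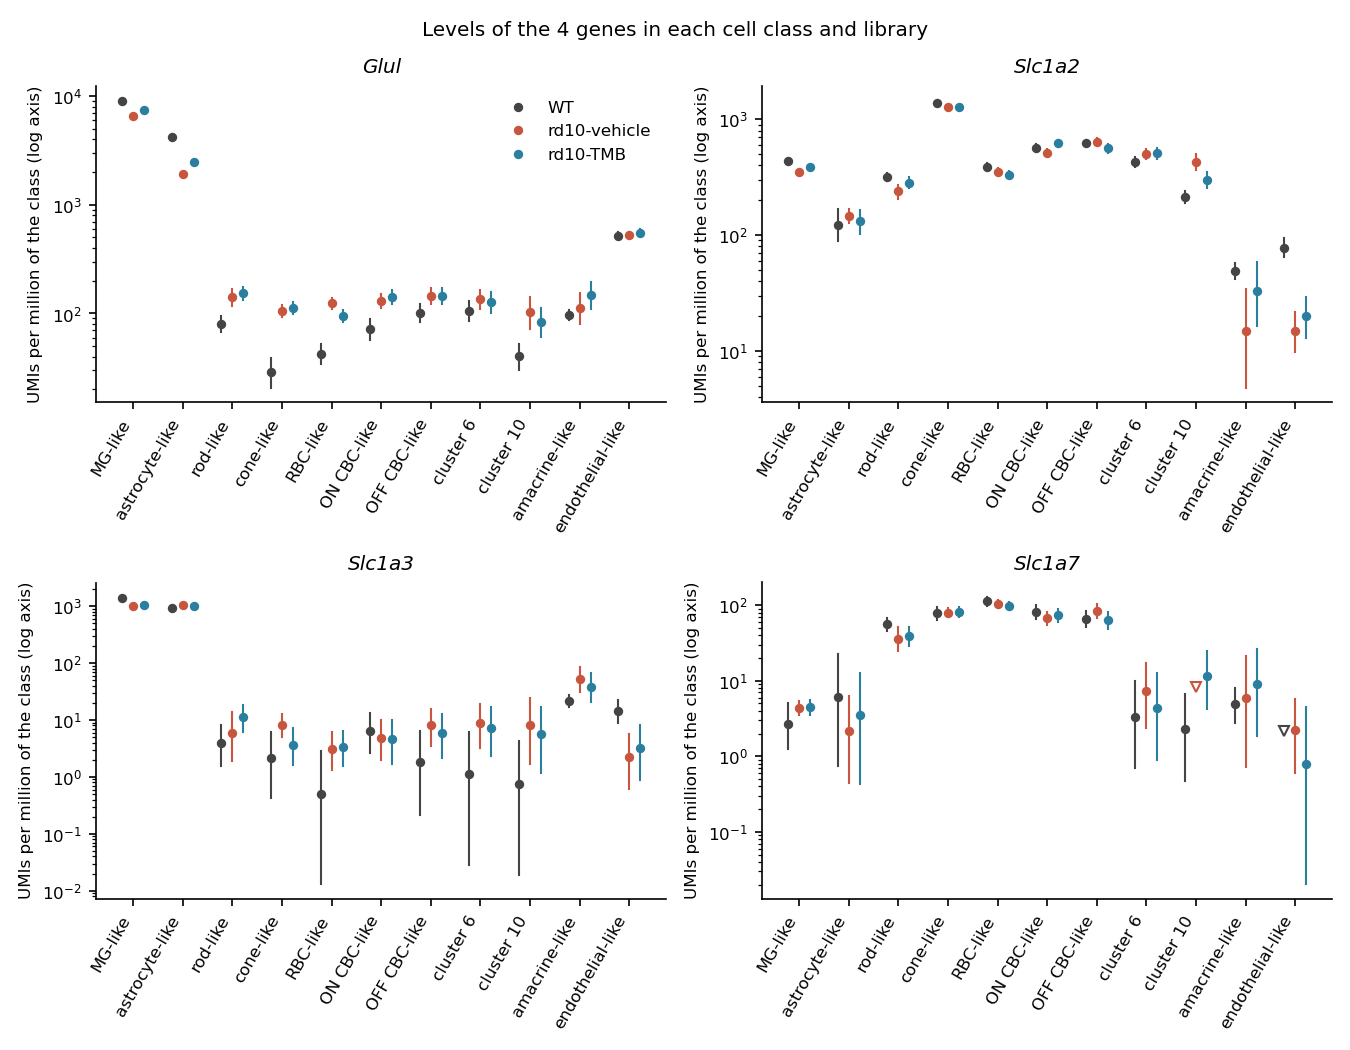
Level of each gene (CPM, log axis) by cell class in the 3 libraries, with 95% counting intervals. Among the classes plotted, Glul and Slc1a3 are highest in MG-like and astrocyte-like cells, Slc1a2 in cone-like cells and Slc1a7 in RBC-like cells.

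Astrocyte-like cells, the other glial class, numbered 20, 88 and 33 and carried both glial genes. Their Slc1a3 levels of 932 (829.8 to 1043), 1025 (972 to 1079) and 987 (907 to 1073) CPM lay near those of MG-like cells, with a median log2 ratio of MG-like over astrocyte-like cells of 0.11 (-0.028 to 0.59 over the 3 libraries). Their Glul levels of 4234 (4013 to 4464), 1918 (1846 to 1992) and 2469 (2341 to 2602) CPM were below those of MG-like cells in each library, with a median ratio of 1.60 (1.09 to 1.78 over the 3 libraries). Slc1a2, at 123, 147 and 131 CPM, was below its MG-like level too, with a median ratio of 1.53 (1.24 to 1.78 over the 3 libraries). Slc1a7 was found in astrocyte-like cells with 2, 3 and 2 UMIs.

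Slc1a2 was highest in cones. Cone-like cells had 1396 (1335 to 1459), 1277 (1234 to 1322) and 1289 (1242 to 1338) CPM, apart from the next class in the order. OFF CBC-like cells had 621, 636 and 561 CPM and ON CBC-like cells 563, 516 and 619 CPM, with overlapping ranges. MG-like cells had 434 (412 to 457), 348 (340.1 to 356) and 384 (375 to 393) CPM, and their range overlapped that of RBC-like cells at 387, 354 and 333 CPM. Rod-like cells had 319, 238 and 284 CPM, below MG-like cells in each library, and amacrine-like cells had 49.1, 14.7 and 32.7 CPM.

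The comparison of MG-like cells with photoreceptors went both ways for Slc1a2. The log2 ratio was -0.87, -1.55 and -1.26 over photoreceptors as a whole, 0.44, 0.54 and 0.43 over rod-like cells alone and -1.68, -1.88 and -1.75 over cone-like cells alone. Over bipolar cells it was -0.19, -0.39 and -0.24, and the median of -0.24 became 0.091 when size factors replaced total UMIs. In cells thinned to 1000 UMIs, an Slc1a2 UMI was found in 76.6% (71.1 to 81.5), 69.9% (65.8 to 73.7) and 68.3% (63.4 to 72.8) of cone-like cells and in 31.5%, 29.1% and 28.7% of MG-like cells. Endothelial-like cells, which should lack the gene, had 8.15%, 2.56% and 6.0%. Without thinning the shares were 99.3%, 97% and 94.4% of cone-like, 81.5%, 84.3% and 84.6% of MG-like and 34.3%, 11.5% and 15% of endothelial-like cells, at median depths of 5333, 4857 and 5548 UMIs (cone-like), 6300, 8594 and 9454 UMIs (MG-like) and 7110, 9718 and 9116 UMIs (endothelial-like).

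Among classes with at least 50 cells in each library, Slc1a7 was highest in those named as photoreceptors and bipolar cells. RBC-like cells had 113 (98.6 to 129), 104 (91.6 to 117) and 96.7 (85.3 to 109) CPM, and the next class in the order, cone-like cells, had 77.9, 79.5 and 81 CPM. ON CBC-like cells at 82, 67.2 and 73.6 CPM and OFF CBC-like cells at 65.7, 84.5 and 63.6 CPM overlapped with cone-like cells. Rod-like cells were lower than these, at 56.2 (45.8 to 68.3), 36 (24.5 to 51.1) and 38.8 (28.7 to 51.3) CPM. Cluster 6, led by Igfn1 and the bipolar gene Vsx1 and left unnamed, had 3, 5 and 3 UMIs, or 3.35 to 7.27 CPM, a range that overlapped that of MG-like cells. Cluster 10, unnamed as well, had 0 to 11.4 CPM. Neither cluster is counted among the bipolar cells here.

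MG-like cells had 9, 97 and 75 UMIs of Slc1a7, or 2.71, 4.37 and 4.47 CPM, which was 2.40%, 4.22% and 4.62% of the RBC-like level and 4.83%, 12.1% and 11.5% of the rod-like level. The log2 ratio was -4.46, -3.96 and -3.86 to photoreceptors and -4.94, -4.34 and -4.22 to bipolar cells. The rod markers Sag and Gnat1, which MG should lack, stood in MG-like cells at 1.86%, 2.89% and 2.97% of their rod-like level. Amacrine-like cells had 4.88, 5.89 and 8.93 CPM of Slc1a7 from 15, 2 and 3 UMIs, and the log2 ratios of MG-like over amacrine-like cells, -0.79 (-2.22 to 0.44), -1.0 (-2.32 to 2.63) and -1.39 (-2.60 to 1.31), have intervals that include 0. The part of free neuronal RNA in the MG-like counts was not tested.

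Of the 4 genes, 2 (Glul and Slc1a3) were at least 2-fold higher in MG-like cells than in photoreceptors in each library, beside 18.8% of all genes tested, and 1 (Slc1a7) was at least 2-fold lower, beside 16.8%. Against bipolar cells 2 were higher, beside 15%, and 1 was lower, beside 17.5%, and they were the same genes. Slc1a2 was in neither group. The classes are clusters of the same transcripts, so these counts are descriptions.

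**Figure D2:**
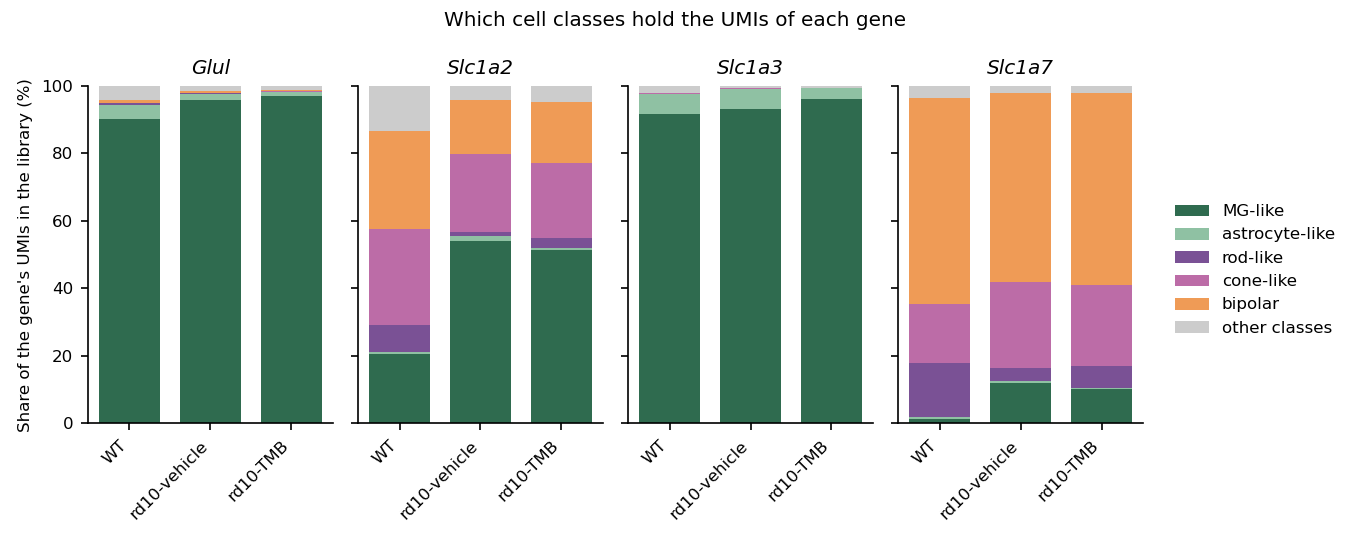
Share of the UMIs of each gene (%) held by each cell class in each library. MG-like cells hold over 90% of Glul and Slc1a3 in each library and 20.5%, 54% and 51.4% of Slc1a2, while bipolar cells hold 60.9%, 56.2% and 57% of Slc1a7.

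The low neuronal counts of the glial genes are given beside those of Rlbp1, an MG gene of the visual cycle. MG-like cells had 3.19, 3.11 and 3.42 Glul UMIs for each Rlbp1 UMI. Cone-like cells had 3.15 (1.66 to 6.41), 4.75 (3.56 to 6.44) and 3.24 (2.49 to 4.24), which in WT and rd10-TMB did not differ from the MG-like ratio beyond counting error. RBC-like cells had 9.33 (4.69 to 21.1), 7.53 (5.47 to 10.6) and 6.79 (4.82 to 9.81), above the MG-like ratio in each library, as were ON CBC-like cells with 8.56 (4.28 to 19.4), 4.95 (3.48 to 7.21) and 6.61 (4.42 to 10.2) and OFF CBC-like cells with 9.33 (5.14 to 18.6), 5.37 (3.54 to 8.43) and 7.68 (4.75 to 13.1). Rod-like cells had 6.26 (4.01 to 10.2), 3.36 (2.30 to 5.02) and 4.51 (3.23 to 6.43), above it in WT alone beyond counting error. Amacrine-like cells had 24.8 (14 to 48.6), 12.7 (4.02 to 64.1) and 50 (8.57 to 2014), with 12, 3 and 1 Rlbp1 UMIs. For Slc1a3 the MG-like ratio was 0.499, 0.475 and 0.485, and those of rod-like (0.304, 0.139 and 0.326), cone-like (0.231, 0.368 and 0.105) and RBC-like cells (0.111, 0.186 and 0.237) had intervals that included it or lay below it, on 1 to 21 Slc1a3 UMIs. ON CBC-like cells had 0.778 (0.246 to 2.35), 0.184 (0.0694 to 0.418) and 0.214 (0.0725 to 0.527) and OFF CBC-like cells 0.167 (0.0181 to 0.749), 0.296 (0.116 to 0.670) and 0.316 (0.103 to 0.822). The part of free MG RNA in these counts was not tested.

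Glul in endothelial-like cells and Slc1a3 in amacrine-like cells stood above the MG-like ratio as well. Endothelial-like cells had 519 (481 to 558), 522 (489 to 557) and 554 (514 to 597) CPM of Glul, with 15.4, 37.7 and 77.4 Glul UMIs for each Rlbp1 UMI. Amacrine-like cells had 21.8 (16.9 to 27.7), 53.1 (31.4 to 83.8) and 38.7 (20.6 to 66.1) CPM of Slc1a3 from 67, 18 and 13 UMIs, with 5.58 (3.0 to 11.3), 6.0 (1.75 to 31.8) and 13 (1.95 to 552) UMIs for each Rlbp1 UMI. Dkk3, a further MG marker, was in amacrine-like cells at 24.7%, 26.2% and 22.1% of its MG-like level.

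Other genes of the glutamate and glutamine pathways were divided between the classes as well. Of 30 listed genes, 17 had enough UMIs to compare MG-like with bipolar cells, and 9 were at least 2-fold higher and 5 at least 2-fold lower in each library, beside 15% and 17.5% of all genes, with a median log2 ratio of 1.20 beside -0.31 over all genes. The lower genes were the aspartate transaminases Got1 (-3.38) and Got2 (-2.41), the asparagine synthetase Asns (-3.02), the glutamine carrier Slc38a1 (-2.05) and the vesicular transporter Slc17a7 (VGLUT1, -4.01), as median log2 ratios.

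Higher in MG-like cells were glutamate dehydrogenase Glud1 (1.77), the branched-chain aminotransferase Bcat1 (3.53), ornithine aminotransferase Oat (3.38), the neutral amino acid transporter Slc1a4 (3.64) and the vesicular transporter Slc17a8 (VGLUT3, 4.33). The cystine exchanger subunits Slc7a11 (1.93) and Slc3a2 (2.37) and the glutathione synthesis genes Gclc (1.20) and Gclm (1.90) were higher too. Against photoreceptors 7 of 16 genes were higher in each library and 4 lower, beside 18.8% and 16.8% of all genes, with a median of 0.47 beside -0.18.

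**Figure D3:**
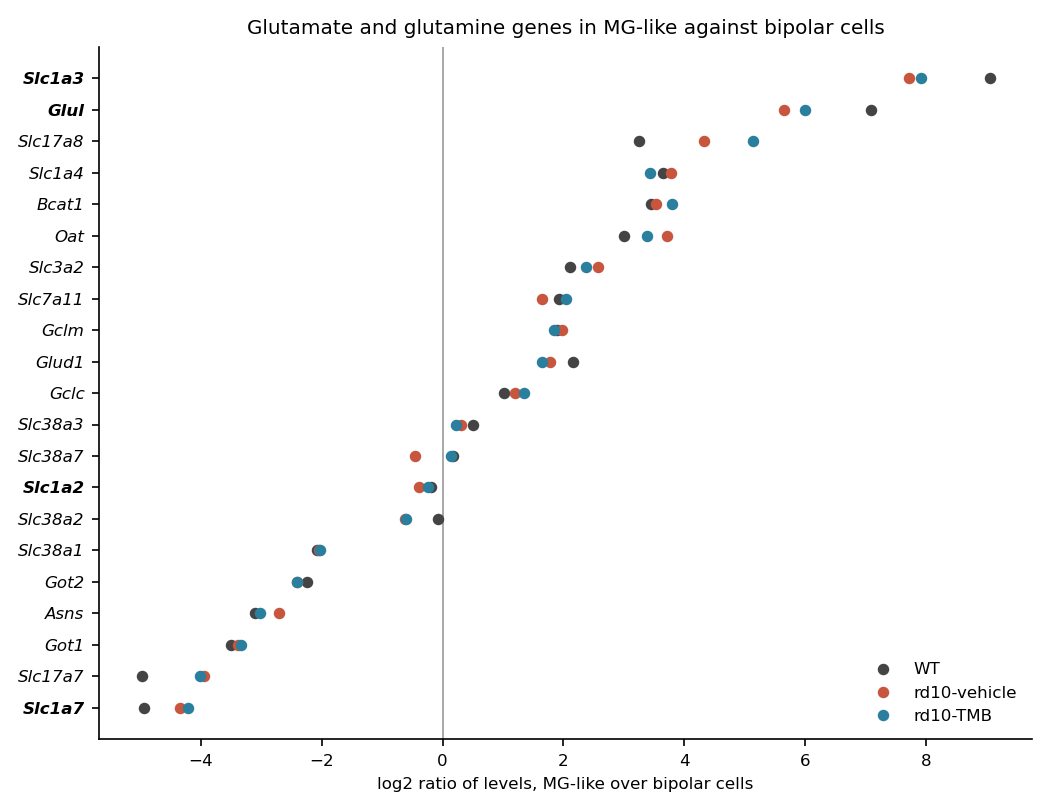
Log2 ratio of levels, MG-like over bipolar cells, for the 4 genes (bold) and the 17 listed pathway genes with enough UMIs, 1 point per library. Slc1a3 and Glul lie to the right, Slc1a7 to the left and Slc1a2 near 0.

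The study asked how rd10 degeneration and TMB change the retina. In MG-like cells, both glial genes were lower in the rd10 libraries than in WT. The log2 ratio of Glul was -0.45 (-0.47 to -0.44) for rd10-vehicle over WT and -0.26 (-0.28 to -0.25) for rd10-TMB over WT. That of Slc1a3 was -0.49 (-0.53 to -0.44) and -0.41 (-0.45 to -0.36). Slc1a2 had -0.32 (-0.40 to -0.24) and -0.18 (-0.26 to -0.093), which became 0.026 (-0.19 to 0.26) and 0.035 (-0.19 to 0.28) in cells thinned to 1000 UMIs. As a mean over cells the Slc1a2 ratios kept their sign, at -0.24 and -0.11. Of the 13 MG markers, 8 were lower and 5 higher beyond counting error for rd10-vehicle over WT, with a median log2 ratio of -0.21, and 8 were lower and 4 higher for rd10-TMB over WT, with a median of -0.20. Rlbp1 was among the lower ones, with -0.42 (-0.45 to -0.39) and -0.36 (-0.40 to -0.33), so the Glul and Slc1a3 UMIs for each Rlbp1 UMI, given above, differed less between libraries than the levels did. For Glul they were 3.19 (3.12 to 3.27) in WT, 3.11 (3.08 to 3.14) in rd10-vehicle and 3.42 (3.38 to 3.46) in rd10-TMB. On this scale rd10-TMB was above WT beyond counting error, the reverse of its level. The median over all genes was -0.057 and -0.076.

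None of these 3 genes reached 1.5-fold. For rd10-vehicle over WT, 0 of the 4 genes were at least 1.5-fold lower, beside 9.31% of all genes, and 0 were higher, beside 8.64%. For rd10-TMB over WT, 0 were lower, beside 8.46%, and 1 was higher, beside 6.64%. That gene was Slc1a7, at 0.59 (-0.28 to 1.91) with 9 UMIs in WT, an interval that includes 0. It was 0.15 (-0.80 to 1.58) without the 5% of cells with the most UMIs, which ends the call, and -0.38 (-1.90 to 1.92) in cells without an Lcn2 UMI at 4000 UMIs. In cells thinned to 1000 UMIs it was 1.29, with a lower limit of -1.19 and no upper limit. That value rests on the pseudocount, since thinning left no WT UMI of the gene. For rd10-vehicle over WT, 14.5% of genes had a lower ratio than Glul and 12.9% a lower ratio than Slc1a3.

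Vehicle and TMB differed less. The log2 ratio of rd10-TMB over rd10-vehicle in MG-like cells was 0.19 (0.18 to 0.20) for Glul, 0.14 (0.095 to 0.19) for Slc1a2 and 0.083 (0.054 to 0.11) for Slc1a3, so their rd10-TMB levels lay between those of rd10-vehicle and WT. In cells thinned to 1000 UMIs the Glul ratio was 0.16 (0.12 to 0.19), while those of Slc1a2, 0.0097 (-0.14 to 0.15), and Slc1a3, 0.021 (-0.068 to 0.11), had intervals that include 0. Thinned Slc1a2 did not lie between rd10-vehicle and WT. As a mean over cells, the ratio was 0.13 for Slc1a2 and 0.059 for Slc1a3. For Slc1a7 the unthinned ratio was 0.037 (-0.42 to 0.48). Of the 4 genes, 0 were at least 1.5-fold higher, beside 1.1% of all genes, and 0 were lower, beside 2.2%.

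MG-like cells differed in depth between libraries, with median UMIs of 6300, 8594 and 9454 per cell. In rd10-vehicle the third of MG-like cells with the most UMIs had 5571 CPM of Glul against 7444 in the third with the fewest, and in rd10-TMB 6753 against 7891. In WT the deepest cells had 9188 CPM and the shallowest 8153. The part of depth in the differences between libraries was not tested beyond the thinned values, which for Glul were -0.37 and -0.21 over WT.

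Glul was lower in rd10 in astrocyte-like cells too, with log2 ratios of -1.14 (-1.24 to -1.05) for rd10-vehicle over WT, -0.78 (-0.89 to -0.67) for rd10-TMB over WT and 0.37 (0.27 to 0.46) for rd10-TMB over rd10-vehicle, where WT has 20 cells. Rlbp1 was lower in these cells as well, with -1.19 (-1.41 to -0.96) and -1.57 (-1.88 to -1.28) over WT, and there were 5.44 (4.76 to 6.25), 5.61 (5.09 to 6.20) and 9.46 (7.98 to 11.3) Glul UMIs for each Rlbp1 UMI, so that ratio did not differ between WT and rd10-vehicle beyond counting error. Of the 13 MG markers, 3 were lower and 5 higher in astrocyte-like cells for rd10-vehicle over WT, and 5 lower and 3 higher for rd10-TMB over WT. For rd10-TMB over rd10-vehicle, where Glul was higher, 8 were lower and 0 higher, with a median log2 ratio of -0.36. The part of MG RNA in the astrocyte-like Glul was not tested. For Slc1a3 in these cells the ratios were 0.13 (-0.043 to 0.32), 0.081 (-0.12 to 0.29) and -0.052 (-0.20 to 0.088), and each interval includes 0.

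**Figure D4:**
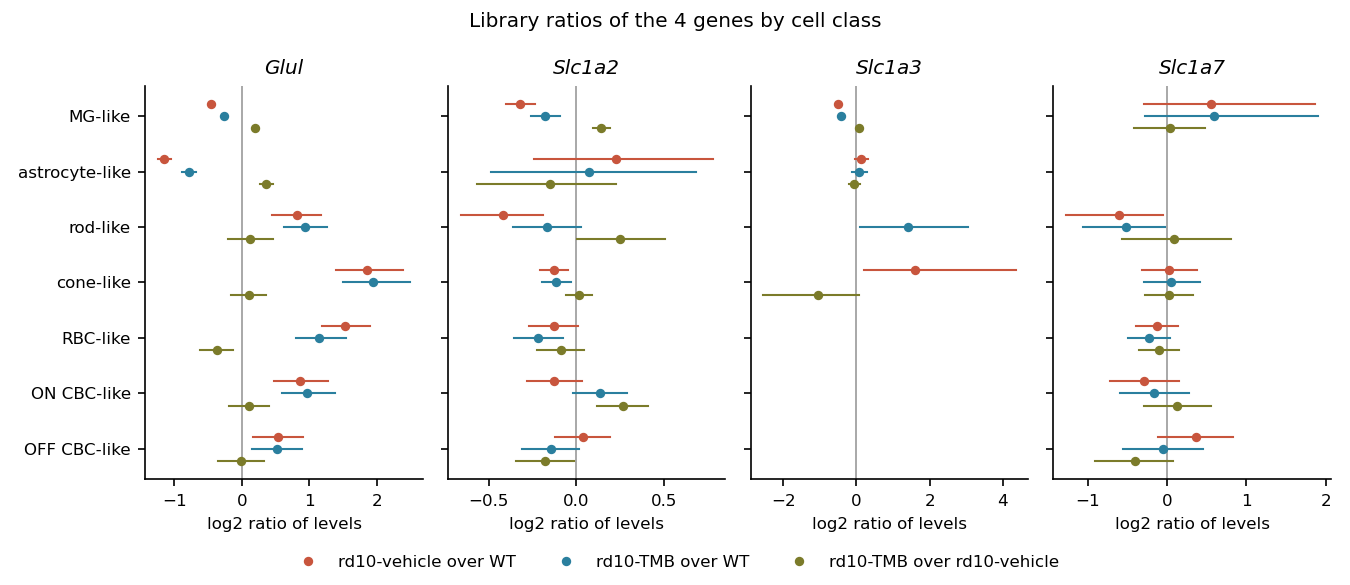
Log2 ratio of levels between libraries for each gene by cell class, with 95% counting intervals. Glul is lower in rd10 than in WT in MG-like and astrocyte-like cells and higher in rod-like, cone-like and bipolar classes.

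Lcn2, a lipocalin gene of reactive glia, was used to split the MG-like cells. In MG-like cells thinned to 4000 UMIs, 9 of 418 WT cells (2.15%, 0.989 to 4.05), 487 of 2326 rd10-vehicle cells (20.9%, 19.3 to 22.6) and 198 of 1582 rd10-TMB cells (12.5%, 10.9 to 14.2) had an Lcn2 UMI. At the same depth the share was 0 of 580, 4 of 331 and 8 of 652 bipolar cells (0%, 1.21% and 1.23%), 1.83%, 6.49% and 1.64% of cone-like cells and 2.59%, 1.5% and 0% of endothelial-like cells. The WT share in MG-like cells lay above that of bipolar cells and near those of cone-like and endothelial-like cells. Both rd10 shares lay above those of each of these classes. In WT, unthinned Lcn2 was at 39.8 CPM in MG-like, 0.241 in bipolar, 5.61 in cone-like and 12.2 in endothelial-like cells. Astrocyte-like cells, the other glial class, had 0 of 20 (0%, 0 to 16.8), 21 of 85 (24.7%, 16 to 35.3) and 4 of 33 (12.1%, 3.40 to 28.2), with intervals in rd10 that include the MG-like shares. For the counts of 0, 3 cells of the total would be 0.517% (bipolar cells, WT) and 3.53% (endothelial-like cells, rd10-TMB). The exact upper limits of these counts were 0.634% and 4.25%. Without thinning, 1.70%, 26.2% and 17.2% of MG-like and 0.0940%, 1.09% and 0.914% of bipolar cells had an Lcn2 UMI, at median depths of 6300, 8594 and 9454 and 4227, 3335 and 3985 UMIs. The part of free RNA in single Lcn2 UMIs was not tested. Glul was lower in the cells with Lcn2, at 4603 against 7599 CPM in rd10-vehicle and 4583 against 8361 CPM in rd10-TMB. In these libraries cells with Lcn2 over cells without it had a log2 ratio of -0.72 (-0.76 to -0.69) and -0.87 (-0.92 to -0.82) for Glul. This ratio was -0.78 (-0.93 to -0.64) and -1.0 (-1.24 to -0.78) for Slc1a2 and -0.35 (-0.43 to -0.28) and -0.43 (-0.55 to -0.32) for Slc1a3. Slc1a7 went the other way on few UMIs, with 0.39 (-1.09 to 1.47) from 8 and 25 UMIs and 2.10 (0.44 to 3.49) from 7 and 12 UMIs. Gfap, the filament gene of gliosis, was higher in the same cells, with 2.17 (2.06 to 2.29) and 2.78 (2.59 to 2.96).

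Among MG-like cells without an Lcn2 UMI at this depth, Glul was at 9287, 7599 and 8361 CPM. The log2 ratios were -0.29 (-0.32 to -0.26) for rd10-vehicle over WT, -0.15 (-0.18 to -0.12) for rd10-TMB over WT and 0.14 (0.12 to 0.16) for rd10-TMB over rd10-vehicle, of the same sign as in all MG-like cells. For Slc1a3 they were -0.43 (-0.50 to -0.37), -0.35 (-0.42 to -0.28) and 0.079 (0.032 to 0.13), and for Slc1a2 -0.15 (-0.26 to -0.029), -0.046 (-0.16 to 0.077) and 0.10 (0.025 to 0.18).

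**Figure D5:**
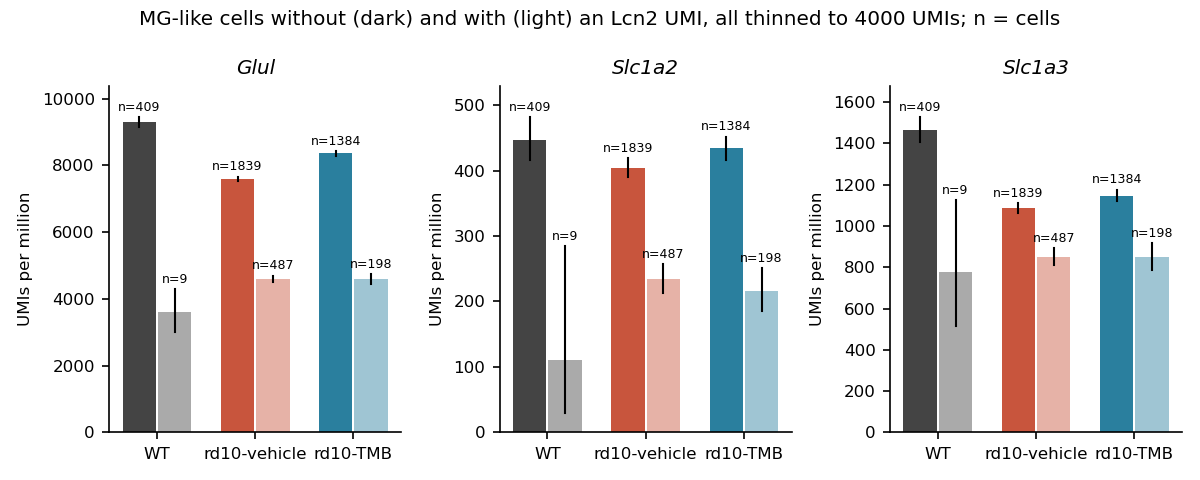
Levels (CPM) of Glul, Slc1a2 and Slc1a3 in MG-like cells without and with an Lcn2 UMI, each cell thinned to 4000 UMIs, with 95% counting intervals. In both rd10 libraries each gene is lower in the cells with Lcn2, and the WT bars with Lcn2 rest on 9 cells.

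In photoreceptor and bipolar classes Glul was higher in the rd10 libraries. Its level in cone-like cells was 28.8 (20.6 to 39) CPM in WT, 106 (93.4 to 119) in rd10-vehicle and 113 (99.5 to 128) in rd10-TMB. Compared with WT, rd10-vehicle had log2 ratios of 1.85 (1.40 to 2.39) for cone-like, 1.52 (1.18 to 1.90) for RBC-like, 0.86 (0.48 to 1.28) for ON CBC-like, 0.81 (0.45 to 1.17) for rod-like and 0.53 (0.17 to 0.90) for OFF CBC-like cells. For rd10-TMB over WT they were 1.95, 1.15, 0.97, 0.94 and 0.52 in the same order. Other neurons did not all show it. Amacrine-like cells had 0.24 (-0.32 to 0.70) and 0.64 (0.16 to 1.05), the unnamed clusters 6 and 10 had 0.35 (-0.076 to 0.78) and 1.35 (0.70 to 1.97) for rd10-vehicle, and horizontal-like cells, 18, 4 and 6 in number, had -0.53 (-4.17 to 0.83) and -0.75 (-2.46 to 0.26). In endothelial-like cells the ratios were 0.0092 (-0.13 to 0.15) and 0.096 (-0.057 to 0.25).

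MG markers moved with the neuronal Glul as a sum, though not each of them. Summed Rlbp1, Apoe and Dkk3 stood at 0.370%, 0.897% and 0.808% of their MG-like level in cone-like cells and at 0.169%, 0.749% and 0.501% in RBC-like cells, and MG-like cells were 11.8%, 41.9% and 36.3% of all cells. In cone-like cells Rlbp1 alone stood at 0.323%, 1.05% and 1.59%, Apoe, which microglia also express, at 0.335%, 0.891% and 0.749% and Dkk3 at 0.745%, 0.783% and 0.663%. The part of free MG RNA in the higher neuronal Glul was not tested.

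Slc1a2 differed little where it was highest. In cone-like cells the log2 ratio was -0.13 (-0.21 to -0.047) for rd10-vehicle over WT, -0.11 (-0.20 to -0.031) for rd10-TMB over WT and 0.014 (-0.059 to 0.087) for rd10-TMB over rd10-vehicle. In rod-like cells it was -0.42 (-0.66 to -0.19) and -0.17 (-0.36 to 0.024) over WT. For rd10-TMB over rd10-vehicle, ON CBC-like cells had 0.26 (0.12 to 0.41) and OFF CBC-like cells -0.18 (-0.35 to -0.014), of opposite sign.

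Slc1a7 was lower in rod-like cells of rd10, with -0.61 (-1.27 to -0.048) for rd10-vehicle and -0.52 (-1.06 to -0.029) for rd10-TMB over WT, from 101, 31 and 49 UMIs. In RBC-like cells, where it was highest, the ratios were -0.13 (-0.39 to 0.14) and -0.23 (-0.49 to 0.040), and in cone-like cells 0.024 (-0.31 to 0.38) and 0.051 (-0.29 to 0.41). The intervals of RBC-like and cone-like cells include 0, so a difference was not detectable at this depth.

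Summed over all cells of a library, Glul was at 1757, 4112 and 4449 CPM and Slc1a3 at 270.5, 647 and 636 CPM, higher in the rd10 libraries, while both were lower within MG-like cells. Slc1a7 was at 33.3, 21.7 and 25.3 CPM and Slc1a2 at 373, 387 and 429.7 CPM. In such sums alone, the number of cells of a class and the RNA per cell cannot be told apart. MG-like cells were 11.8%, 41.9% and 36.3% of the cells, and rod-like cells were 26.4%, 9.34% and 15.5%.

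Among the other pathway genes in MG-like cells, 21 of 30 had enough UMIs in each comparison with WT. For rd10-vehicle over WT, 2 were at least 1.5-fold higher and 3 lower, beside 8.64% and 9.31% of all genes, with a median log2 ratio of -0.11. For rd10-TMB over WT, 2 were higher and 4 lower, beside 6.64% and 8.46%, with a median of -0.079, and for rd10-TMB over rd10-vehicle 0 of 22 were higher and 0 lower, beside 1.1% and 2.2%. Oat, which makes glutamate from ornithine, was at 177, 317 and 272 CPM, with 0.84 (0.72 to 0.97) and 0.62 (0.50 to 0.75) over WT. Slc38a2, a carrier of glutamine and other neutral amino acids, was at 142, 88.9 and 70.9 CPM, with -0.68 (-0.82 to -0.53) and -1.0 (-1.16 to -0.84).

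Slc17a8 was lower in rd10-vehicle, with -0.78 (-1.11 to -0.42), and had -0.39 (-0.71 to -0.023) in rd10-TMB. The alanine aminotransferase gene Gpt2 had -0.71 (-1.30 to 0.0034) and -0.73 (-1.35 to -0.00089) over WT, and in rd10-TMB its relative Gpt had -0.59 (-1.43 to 0.50) and the carrier Slc38a7 -0.62 (-1.22 to 0.11). Slc17a7, with 0.83 (0.48 to 1.24) and 0.84 (0.48 to 1.25), stood in MG-like cells at 2.20%, 4.03% and 3.78% of its rod-like level, beside the rod markers given above.

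Within MG-like cells Glul was found in nearly every cell. After thinning to 1000 UMIs it was detected in 99.2% (98.1 to 99.8), 97.2% (96.5 to 97.8) and 98.3% (97.5 to 98.8) of them, against 5.45%, 12.2% and 11.6% of bipolar cells. Slc1a3 was detected in 70.4%, 62.1% and 63.1% of MG-like cells. Without thinning, the Glul shares were 100%, 99.8% and 99.8% of MG-like and 20.5%, 30.8% and 32.9% of bipolar cells. The median MG-like cell had 89.7, 72.5 and 80.4 Glul UMIs per 10000 and the cell at the 10th percentile 51.1, 27.4 and 37.5. For Slc1a3 the median cell had 13.7, 9.79 and 10.2 per 10000.

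Over 32 profiles of a class in a library, from 12 classes, the log2 levels of Glul and Slc1a3 had a Pearson r of 0.89, those of Slc1a2 and Slc1a7 had 0.60, and those of Glul and Slc1a7 had -0.49. These profiles share libraries and free RNA, and the values are descriptions. Of 13331 genes, the 5 most like Glul were Plaat3 (0.96), Ildr2, Ccdc8, Alpk1 and Rftn2 (0.96). Those most like Slc1a3 were Fbxo2 (0.97), Lhx2, Efemp1, Dbi and Sphk1 (0.97). Those most like Slc1a2 were Shroom3 (0.90), mt-Nd5, Glo1, mt-Co3 and mt-Nd4 (0.86), and those most like Slc1a7 were Gzmm (0.89), Fam222a, Med13, Gm17259 and 9430060I03Rik (0.80).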

How the data were processed

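The deposited matrix holds 15242 cells of mouse retina. Per the labels and the methods of the study, the authors ran Cell Ranger 6.0.1 and Seurat 3.2.2 on mm10, kept cells with at least 500 genes, removed doublets before deposit and clustered the cells, so no doublet caller was run here. The deposited values are the natural log of 1 plus UMIs per 10000. The UMI counts that the authors started from were recovered from them: 32620606 of 32620606 entries came out whole within 0.001 UMIs, and the counts of 15242 of 15242 cells summed to the deposited total.

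Cluster names were rebuilt here from marker lists, so shares may differ from those of the study. Each level is the sum of a gene's UMIs over the cells of a class, divided by all UMIs of those cells. Level intervals are exact Poisson, share intervals exact Clopper-Pearson, and log2 ratios (pseudocount 1 UMI) have exact conditional binomial intervals, all at 95% and for counting error only. The authors tested cells as replicates with MAST, which was not done here. Shares of genes past 1.5-fold (between libraries) or 2-fold in each library (between classes) cover genes with at least 50 UMIs. Cells were thinned to 1000 UMIs for shares and to 4000 for the Lcn2 split, leaving out shallower cells (527, 2476 and 1727 MG-like cells had 1000 UMIs). Promoters of 4 of the 4 genes were in the RefSeq table. The 4 genes and the gene lists were chosen with earlier results of these data known. Some genes of the chosen lists are not reported here and were left out of the list counts and marker sums given in the text. Named genes are the 4 genes, listed pathway genes with at least 20 UMIs, and the 5 genes most like each. Alternatives were size factors, other totals, means over cells, thinning, cell filters, other pseudocounts and other class definitions. The code was tested on simulated data. Python 3.11.15, numpy 2.4.6, scipy 1.17.1, pandas 2.3.3 and matplotlib 3.10.9 were used.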

Additional observations from a re-analysis of the deposited data

Results flagged for a closer look

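Some ratios between libraries lay above 0 in one cell class and below 0 in another, beyond counting error in both, and these differences between classes were not tested. For Glul, rd10-vehicle over WT was 1.85 in cone-like and -0.45 in MG-like cells, 2.30 apart, and rd10-TMB over WT was 1.95 and -0.26, 2.21 apart. For Glul in rd10-TMB over rd10-vehicle, MG-like cells had 0.19 and RBC-like cells -0.37, 0.56 apart. Cluster 10 was left unnamed because it held markers of more than 1 class, with 6 of 10 ON cone bipolar and 5 of 10 amacrine markers, and had 239, 107 and 123 cells beside 756, 105 and 83 amacrine-like cells. Whether its makeup differed between libraries was not tested. For Slc1a2, cluster 10 had 1.01 and endothelial-like cells -2.34 for rd10-vehicle over WT, 3.36 apart, and 0.50 and -1.93 for rd10-TMB over WT, 2.43 apart. Endothelial-like cells had 109, 27 and 25 Slc1a2 UMIs, and Slc17a7, a neuronal gene, stood in them at 21.3%, 3.14% and 3.97% and the rod markers Sag and Gnat1 at 1.26%, 0.556% and 1.12% of their rod-like level. The part of neuronal RNA in these ratios was not tested. For Slc1a2 in rd10-TMB over rd10-vehicle, ON CBC-like cells had 0.26 and cluster 10 -0.52, 0.78 apart. For Slc1a3, rd10-vehicle over WT was 1.34 in amacrine-like cells, from 67 UMIs in WT, and -0.49 in MG-like cells, 1.83 apart.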

How the results depend on the processing

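Over 188 alternative values for 20 results, 182 kept the sign of the reported log2 ratio and 7 lay more than 1.5 times away from it. The reversals were those of Slc1a2. Its ratio of MG-like cells over photoreceptors was 0.44 with rod-like cells alone, its ratio over bipolar cells was 0.091 with size factors and 0.16 with RBC-like cells alone, and in MG-like cells thinned to 1000 UMIs its ratio was 0.026 for rd10-vehicle and 0.035 for rd10-TMB over WT. Rod-like or RBC-like cells alone are other comparison classes by construction, and for the others the cause was not tested.

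Glul in MG-like cells kept its direction under each alternative run. With size factors it was -0.39 for rd10-vehicle over WT, -0.18 for rd10-TMB over WT and 0.21 for rd10-TMB over rd10-vehicle. Without mitochondrial and ribosomal protein genes in the total it was -0.44, -0.23 and 0.21, as a mean over cells -0.35, -0.19 and 0.16, and with thinned cells -0.37, -0.21 and 0.16. Without the 5% of cells with the most UMIs it was -0.39 and -0.20 over WT. Glul UMIs for each Rlbp1 UMI, which were not among these runs, were higher in rd10-TMB than in WT, as given above.

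Slc1a3 in MG-like cells was -0.42 (size factors) and -0.39 (thinned) for rd10-vehicle over WT, -0.32 (size factors) for rd10-TMB over WT and 0.021 (thinned) for rd10-TMB over rd10-vehicle. Slc1a2 was -0.089 with size factors for rd10-TMB over WT and 0.0097 thinned for rd10-TMB over rd10-vehicle. When WT was limited to 245 of 530 cells, those with an Xist UMI but none from the Y chromosome, it was -0.50 and -0.36 over WT. Slc1a2 over photoreceptors was -0.64 as a mean over cells, -0.75 thinned and -1.75 with cone-like cells alone, and over cone bipolar cells alone it was -0.63. Slc1a7 over photoreceptors was -4.34 without the 5% of cells with the most UMIs and -3.13 over rod-like cells, over bipolar cells it was -5.13 thinned, and for rd10-TMB over rd10-vehicle 0.71 thinned and -0.19 without the 5% of cells with the most UMIs, the remaining change of sign, on few UMIs. Adding the unnamed clusters 6 and 10 to the bipolar cells was chosen after seeing the data and gave -4.09 for Slc1a7, outside the range of the 3 libraries, and values within that range for the other genes. No paired analysis was possible because each group is 1 library. The counting intervals say nothing of the spread between mice.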

Other observations

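Among the transporters outside the 4 genes, Slc1a1 (EAAT3), a neuronal glutamate transporter, was at 79.4, 58.9 and 50.6 CPM in amacrine-like cells, 10.6, 29 and 24.5 CPM in rod-like cells and 2.11, 1.76 and 2.03 CPM in MG-like cells. Slc1a6 (EAAT4) was at 24.4, 14.7 and 26.8 CPM in amacrine-like cells. The GABA synthesis genes Gad1 and Gad2, markers of amacrine cells, were at 8.13, 0.45 and 0.358 CPM and 4.52, 0.631 and 0.954 CPM in MG-like cells, in libraries with 756, 105 and 83 amacrine-like cells. The microglia-like class is not compared between libraries here, since WT held 6 such cells.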
